A study of Mus musculus with 10 samples.

Results

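Genes that act in mitosis and at the spindle were examined in the RNA of mouse CD8+ T cells that had shared a culture with 4T1, a mammary carcinoma line of Balb/c origin. The 44 genes are a panel that runs from the kinase and cyclins of mitotic entry to the proteins of cytokinesis. The rule lists them by name and uses no measured value, but the panel was drawn up with earlier results of these data known. All 44 were found once each among the 57825 genes of the deposited table. The study compared 5 samples without sodium acetate (NaAc), called CD8+4T1, with 5 samples that received 5 mM NaAc, called CD8+4T1+NaAc, and all were labelled day 3. In both groups the CD8+ T cells came from spleens of female Balb/c mice aged 7 to 8 weeks by magnetic isolation, were activated for 12 h on plate-bound anti-CD3 with anti-CD28 and IL-2, and were kept for 24 h with or without NaAc. They then shared a culture with 4T1 cells for 48 h before the CD8+ T cells were purified and their RNA was sequenced. The comparison asks how acetate, a short-chain fatty acid that cells convert to acetyl-CoA, changes the transcripts of these T cells. The labels do not say that the replicates of a group came from separate animals or cultures, so the p-values measure the spread between these samples, which may be technical. Levels are given as FPKM, that is fragments of a gene scaled by its length and by those of the sample, and values listed in a row follow replicates 1 to 5.

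As background, a cell enters mitosis when the kinase CDK1, bound to a cyclin, is freed of inhibitory phosphates by CDC25 phosphatases. The spindle then attaches to the kinetochore of each chromosome, and the spindle assembly checkpoint holds back the anaphase-promoting complex until all are attached. Naive CD8+ T cells rest outside the cycle and, once activated through the T cell receptor, divide quickly, so transcripts of these genes are widely read as marks of proliferating T cells. Most of them peak in G2 and mitosis together, under the transcription factors FOXM1 and B-MYB, which are recruited with the MuvB complex to the cell cycle genes homology region (CHR), and under NF-Y, which binds CCAAT boxes.

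These 2 elements were looked for in the genes' own promoters, because they are a feature beyond their role that many, though not all, of the genes share. RefSeq promoter windows of GRCm38.p6, from 250 bases before to 50 bases after the annotated start, were matched by symbol for 36 of the 44 genes, the first listed window being used where there were several. The genes without a window were Ccna2, Cdc25c, Aurkb, Tpx2, Kif20a, Foxm1, Spc24 and Incenp. The CHR, searched as TTTGAA or as its variant TTCGAA, stood on either strand in 29 of the 36 windows (80.6%), against 19.4% of all 27025 promoter windows of the same length. CCAAT stood on either strand in 26 windows (72.2%, against 37.9% of all), both motifs in 24 (66.7%, against 7.70%), and at least 2 CCAAT in 17 (47.2%, against 12.2%), and no CHR match overlapped a CCAAT match. These windows and the gene positions of the deposited table are on different coordinates, since the start in the window lay 11.5 to 957 kb from the listed start in all 36 genes. A match is a description of letters and was not tested as a binding site.

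The windows of 3 genes with higher and 3 genes with lower transcript levels in CD8+4T1+NaAc, those with the smallest adjusted p in each direction among genes with a window, are printed so that the motifs can be compared between the directions. Each is written 5′ to 3′ along the gene's strand in lower case, with the CHR (TTTGAA or, on the other strand, TTCAAA) and the CCAAT box (on the other strand, ATTGG) in capitals. Anln lies at chr9:22389157-22389456 (minus strand), Cenpa at chr5:30666636-30666935 (plus strand), Mki67 at chr7:135716330-135716629 (minus strand), Mad2l1 at chr6:66534971-66535270 (plus strand), Bub3 at chr7:131560120-131560419 (plus strand) and Aurka at chr2:172370521-172370820 (minus strand).
Anln: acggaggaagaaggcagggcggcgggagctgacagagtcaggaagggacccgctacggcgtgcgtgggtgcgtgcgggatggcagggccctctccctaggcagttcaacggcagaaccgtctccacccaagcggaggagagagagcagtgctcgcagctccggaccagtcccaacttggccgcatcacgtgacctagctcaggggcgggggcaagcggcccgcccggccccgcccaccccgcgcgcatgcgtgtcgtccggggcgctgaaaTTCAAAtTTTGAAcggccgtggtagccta
Cenpa: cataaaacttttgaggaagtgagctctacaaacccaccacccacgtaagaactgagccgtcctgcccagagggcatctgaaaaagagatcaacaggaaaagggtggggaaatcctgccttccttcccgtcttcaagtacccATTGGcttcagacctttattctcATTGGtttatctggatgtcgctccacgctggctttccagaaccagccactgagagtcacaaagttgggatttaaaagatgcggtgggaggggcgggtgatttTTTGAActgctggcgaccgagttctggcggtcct
Mki67: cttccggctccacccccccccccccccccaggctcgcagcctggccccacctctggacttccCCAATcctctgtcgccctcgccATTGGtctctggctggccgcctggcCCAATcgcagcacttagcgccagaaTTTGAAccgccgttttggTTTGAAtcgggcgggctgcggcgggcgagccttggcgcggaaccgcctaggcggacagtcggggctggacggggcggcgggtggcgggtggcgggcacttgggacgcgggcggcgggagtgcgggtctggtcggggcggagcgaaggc
Mad2l1: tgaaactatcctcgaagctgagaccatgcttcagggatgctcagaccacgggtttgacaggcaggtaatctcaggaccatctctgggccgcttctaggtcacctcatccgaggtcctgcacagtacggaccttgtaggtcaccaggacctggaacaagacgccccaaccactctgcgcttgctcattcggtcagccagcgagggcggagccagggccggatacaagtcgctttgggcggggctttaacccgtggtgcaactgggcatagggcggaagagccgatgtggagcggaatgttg
Bub3: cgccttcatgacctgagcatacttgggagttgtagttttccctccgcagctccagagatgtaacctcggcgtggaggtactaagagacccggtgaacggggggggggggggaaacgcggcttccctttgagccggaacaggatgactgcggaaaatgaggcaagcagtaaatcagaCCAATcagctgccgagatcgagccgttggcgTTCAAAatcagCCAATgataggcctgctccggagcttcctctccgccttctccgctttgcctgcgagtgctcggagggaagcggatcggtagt
Aurka: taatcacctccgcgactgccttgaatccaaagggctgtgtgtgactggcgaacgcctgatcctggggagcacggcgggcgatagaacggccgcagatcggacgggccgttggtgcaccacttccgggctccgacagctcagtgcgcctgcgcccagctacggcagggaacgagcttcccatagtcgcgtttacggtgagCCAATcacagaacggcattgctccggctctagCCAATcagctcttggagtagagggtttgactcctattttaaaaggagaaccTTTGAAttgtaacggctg

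The window of Anln, whose transcript rose most, held 2 adjoining CHR matches after the start and 0 CCAAT. Cenpa and Aurka each held 1 CHR match after the start and 2 CCAAT before it. Mki67 held 2 CHR and 3 CCAAT, Bub3 held 1 CHR between 2 CCAAT, and Mad2l1, the gene with the strongest fall, held 0 of either. Over the 36 windows, a CHR match was present in 8 of 8 genes called higher, 5 of 6 called lower and 16 of 22 not called, and a CCAAT in 6, 4 and 16 of these. Of the 6 genes called lower that have a window, Mad2l1 alone was still lower when samples were rescaled to the same total or to T cell markers, and the calls on Bub3 and Aurka ended.

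Mitotic transcripts were present in every sample at levels that rested on many fragments, with little difference between the groups for most genes. The samples had between 16306447 and 18853726 reference fragments, the number to which the FPKM are scaled, and each of the 44 genes was backed by between 216 and 14761 fragments in a sample. All 44 passed the filter of a mean of at least 0.5 FPKM, as did 15710 genes in all. The highest mean levels over all 10 samples belonged to Top2a, Cdc20 and Ube2c and the lowest to Kif18a, at 1.53 FPKM in CD8+4T1 and 1.84 FPKM in CD8+4T1+NaAc. Summed over the 44 genes on the deposited scale, FPKM ran from 942 to 970 in CD8+4T1 and from 920 to 1041 in CD8+4T1+NaAc. The CD8+4T1+NaAc samples thus lay on both sides of the CD8+4T1 samples. Factors that bring samples to the same total were 0.919 to 0.991 in CD8+4T1 and 1.04 to 1.09 in CD8+4T1+NaAc. Multiplied by these factors, the sums would no longer overlap. In bulk RNA a change in the share of dividing cells and a change in RNA per cell cannot be told apart.

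With limma on log2(FPKM + 0.1), which moderates each gene's variance over all genes, and Benjamini-Hochberg adjustment over the 15710 genes, 18 of the 44 genes passed an adjusted p of 0.05 (40.9%, against 36.5% of all genes tested). Of these, 11 were higher in CD8+4T1+NaAc (25%, against 17.6%) and 7 were lower (15.9%, against 19.0%), and 26 did not pass. These shares lay near those of all genes, and among the 10957 genes within the same range of mean FPKM 41.1% passed, 18.3% higher and 22.8% lower. The median log2 fold change of the 44 genes, CD8+4T1+NaAc minus CD8+4T1, was 0.09 (all genes -0.02) and their median absolute log2 fold change 0.15 (all genes 0.26). In this fit the absolute log2 fold change stayed under 0.35 for 40 of the 44 genes and was over 1 for Anln alone. With samples rescaled to the same total, more genes exceeded 0.35, among them Cdk1 (0.36), Kif18a (0.41) and Mki67 (0.48). The groups did not overlap, with all CD8+4T1+NaAc samples above all CD8+4T1 samples, for 6 genes (Anln, Cenpa, Cenpf, Foxm1, Cdc25b and Mki67), where 13.1% of all genes tested did the same. The reverse held for 4 genes (Mad2l1, Bub3, Aurka and Kif11), where 13.3% did. Over both directions this made 10 of 44 genes beside 26.4% of all genes.

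The count depends on how the samples are scaled, because the FPKM of all genes summed to less in each CD8+4T1+NaAc sample (282995 to 295928) than in each CD8+4T1 sample (310965 to 335151), and the listed genes held 89.8 to 92.1% of the reference fragments against 95.5 to 97.9% (exact permutation test, two-sided, p = 0.00794, n = 5 per group, the smallest p it can give). When each sample was rescaled to the same total, the median of all genes rose to 0.16 and that of the 44 genes to 0.26, and 26 were higher and 2 lower (59.1% and 4.55%, beside 31.2% and 8.80% of all genes tested). When samples were scaled to their summed T cell markers, 12 were higher and 2 lower, with a median of 0.18 (all genes 0.08, with 21.2% higher and 9.92% lower). Under both scalings Mad2l1 and Spc24 stayed lower, and the 6 higher genes whose groups did not overlap stayed higher. Without CD8+4T1 replicate 5, 7 genes were higher (all genes 15.7%), and without CD8+4T1+NaAc replicate 1, 15 were (all genes 21.7%). Without CD8+4T1+NaAc replicate 4, 4 genes were lower (all genes 16.4%).

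**Figure D1:**
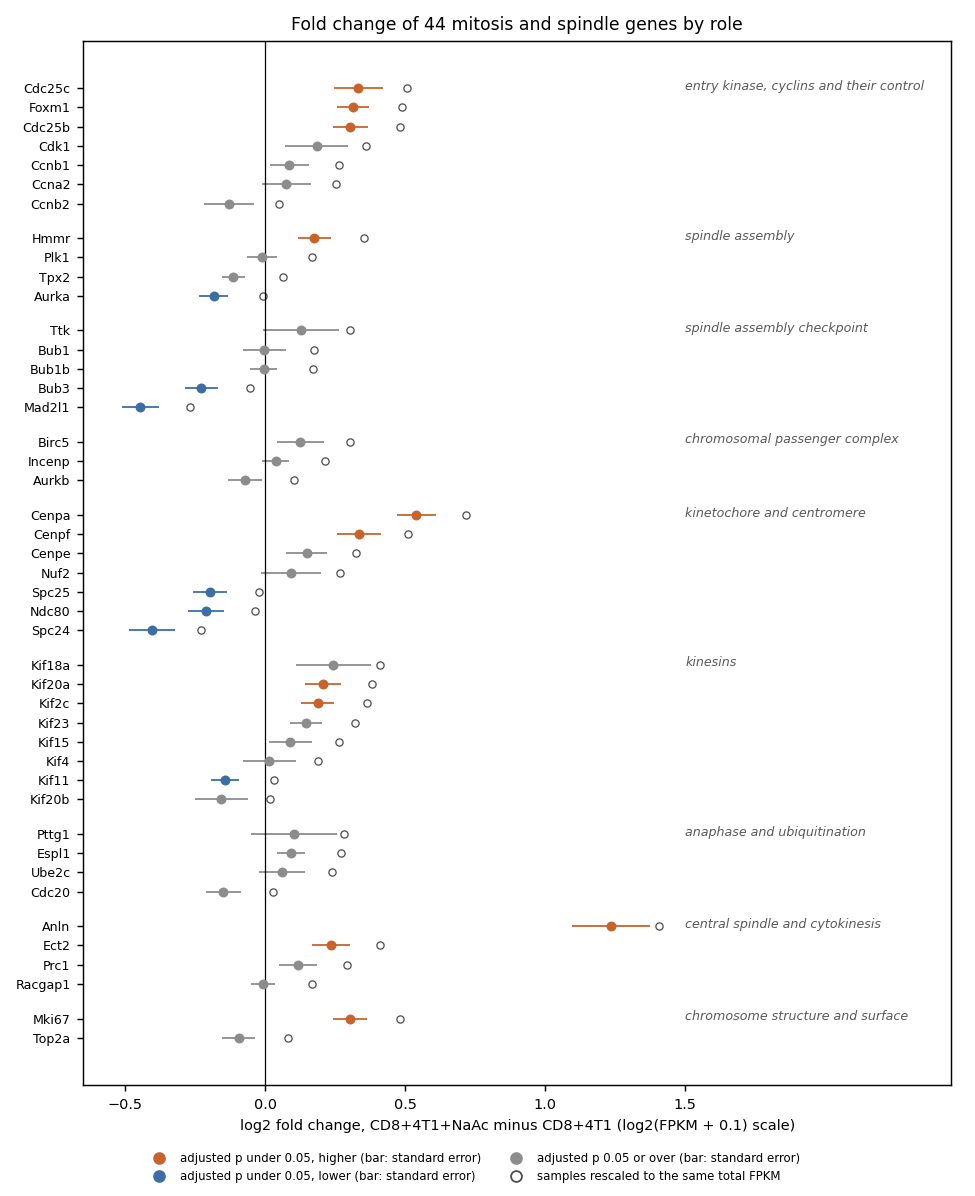
Log2 fold change (x axis, CD8+4T1+NaAc minus CD8+4T1, log2(FPKM + 0.1) scale) of the 44 genes, grouped by role, with 5 samples per group. Filled points are the fitted values with bars of 1 standard error, coloured by the call at an adjusted p of 0.05, and open points are the values after every sample was rescaled to the same total FPKM: most points lie within 0.35 of 0, Anln stands at 1.23, and the open points lie to the right of the filled ones.

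Among the genes that start mitosis, the phosphatases Cdc25b and Cdc25c and the transcription factor Foxm1 were higher with NaAc, while the kinase Cdk1 and its cyclins did not pass the test. Foxm1 (ENSMUSG00000001517, chr6:128339930-128353109), the transcription factor that drives G2 and M phase genes, measured 12.5, 11.7, 11.8, 13.1 and 12 FPKM in CD8+4T1 and 13.8, 16.4, 14.8, 16.1 and 15 FPKM in CD8+4T1+NaAc. The lowest CD8+4T1+NaAc sample, replicate 1, lay above the highest CD8+4T1 sample, replicate 4, and the log2 fold change was 0.31 (SE 0.06, adjusted p = 0.00161), from 12.2 ± 0.558 to 15.2 ± 1.03 FPKM (SD, n = 5). Cdc25b ranged from 15 to 17.5 FPKM in CD8+4T1 and from 18.9 to 22.2 FPKM in CD8+4T1+NaAc, with a log2 fold change of 0.30 (SE 0.06, adjusted p = 0.0032). Cdc25c, a phosphatase of CDK1 present at a lower level, ranged from 3.26 to 4.11 and from 3.99 to 5.08 FPKM, with a log2 fold change of 0.33 (SE 0.09, adjusted p = 0.0122), and its groups overlapped through the highest CD8+4T1 sample, replicate 1. All 3 of these calls held in each of the 10 fits that left out 1 sample.

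Cdk1 (ENSMUSG00000019942, chr10:69170976-69188768), the kinase of mitotic entry, measured 24.2, 20.8, 20.4, 21.3 and 19.1 FPKM in CD8+4T1 and 18.2, 25.5, 25.7, 23.1 and 28.7 FPKM in CD8+4T1+NaAc. The CD8+4T1+NaAc group held both the lowest sample of all, replicate 1, and the highest, replicate 5, and the log2 fold change was 0.18 (95% confidence interval -0.06 to 0.43, adjusted p = 0.229). Without CD8+4T1+NaAc replicate 1, Cdk1 was higher by a log2 fold change of 0.28 (adjusted p = 0.0137), and under the same total by 0.36 (adjusted p = 0.025). Ccnb1 (ENSMUSG00000041431, chr13:100915158-100923078), cyclin B1, the partner of CDK1 in mitosis, measured 28.5, 34.1, 33.4, 30.1 and 30.3 FPKM without NaAc and 30.00, 33.7, 34.1, 31.2 and 37.2 FPKM with it. These ranges overlapped over most of their length, with a log2 fold change of 0.09 (95% confidence interval -0.07 to 0.24, adjusted p = 0.372), but it passed under the same total (0.26, adjusted p = 0.00714) and T cell marker scaling (adjusted p = 0.0471). Ccna2, cyclin A2, which acts from S phase to early mitosis, measured 26.8, 27.3, 26, 24.2 and 27.2 FPKM in CD8+4T1 and 22.1, 29.5, 29.9, 26.8 and 31.3 FPKM in CD8+4T1+NaAc. Its lowest value was again CD8+4T1+NaAc replicate 1, and its log2 fold change was 0.08 (adjusted p = 0.539), against 0.16 (adjusted p = 0.0399) without that sample and 0.25 (adjusted p = 0.0373) under the same total. Ccnb2, cyclin B2, had 48 ± 1.89 and 44.3 ± 6.12 FPKM (SD, n = 5), with a log2 fold change of -0.13 (adjusted p = 0.294).

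**Figure D2:**
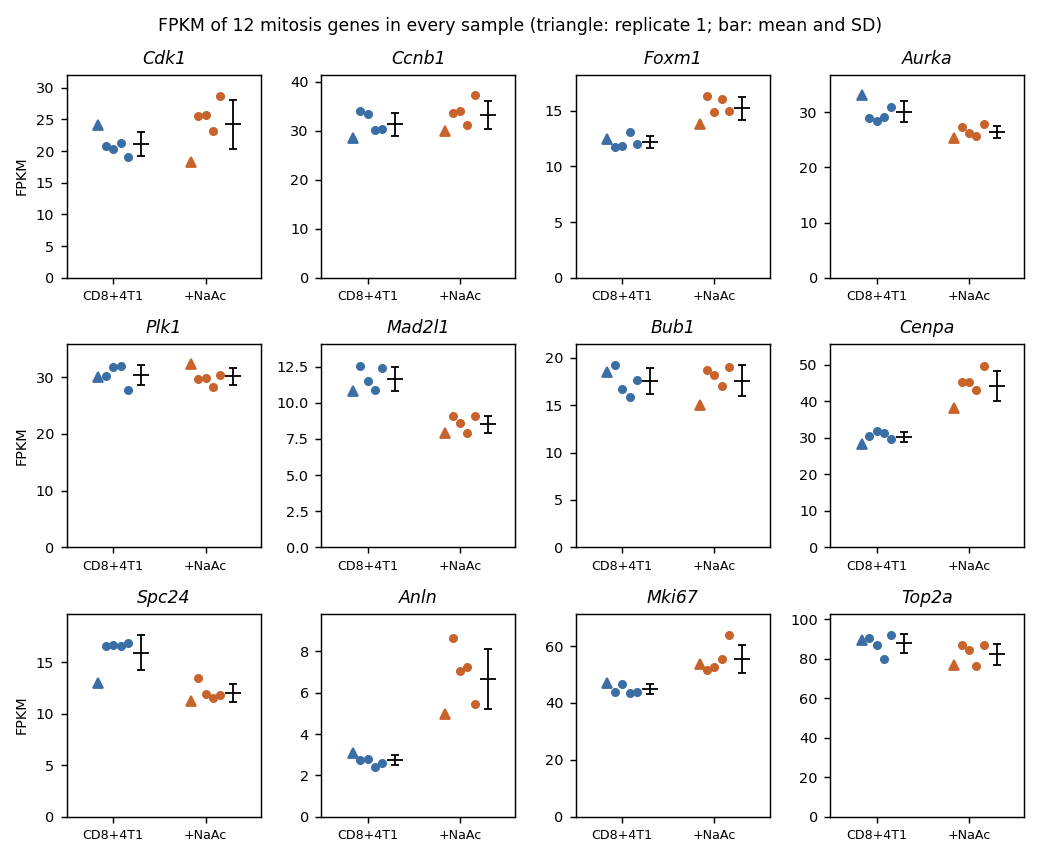
FPKM (y axis, linear, from 0) of 12 of the genes in each of the 10 samples, CD8+4T1 in blue and CD8+4T1+NaAc in orange, with replicate 1 as a triangle and the mean and SD as a bar beside each group of 5. Anln, Cenpa, Foxm1 and Mki67 separate upward, Mad2l1 and Aurka downward, Spc24 overlaps through replicate 1 of CD8+4T1, and in Cdk1 replicate 1 of CD8+4T1+NaAc lies below all other samples.

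Of the spindle assembly factors, Aurka was lower and Hmmr slightly higher with NaAc, and Plk1 differed by less than its spread. Aurka (ENSMUSG00000027496, chr2:172198110-172212455), the centrosomal kinase that matures the spindle poles, measured 33.1, 28.9, 28.4, 29.2 and 31 FPKM in CD8+4T1 and 25.3, 27.3, 26.2, 25.8 and 27.8 FPKM in CD8+4T1+NaAc. All CD8+4T1+NaAc samples lay below all CD8+4T1 samples, at 25.3 to 27.8 against 28.4 to 33.1 FPKM, with a log2 fold change of -0.18 (SE 0.05, adjusted p = 0.0189). This call held in each of the 10 fits that left out 1 sample and ended when samples were rescaled to the same total (log2 fold change -0.01, adjusted p = 0.944) or to T cell markers (adjusted p = 0.425). Plk1 (Polo-like kinase 1), which acts at centrosomes, kinetochores and the midbody, measured 30.1, 30.3, 31.9, 31.9 and 27.7 FPKM without and 32.4, 29.7, 29.9, 28.3 and 30.4 FPKM with NaAc. The groups overlapped almost wholly, and the 95% confidence interval of the log2 fold change ran from -0.13 to 0.11 around -0.01 (adjusted p = 0.892). Under the same total its direction turned and it was called higher (log2 fold change 0.17, adjusted p = 0.0351). Hmmr, a microtubule-associated protein of the spindle poles, was higher by a log2 fold change of 0.18 (SE 0.06, adjusted p = 0.0376), a call that held in 2 of the 10 fits without 1 sample, those without replicate 1 of either group, with adjusted p from 0.0513 to 0.088 in the other 8. Tpx2, which activates Aurora A on microtubules, had a log2 fold change of -0.11 and an adjusted p of 0.0504, which came under the threshold without CD8+4T1+NaAc replicate 1 (0.0452) or replicate 2 (0.0221).

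In the spindle assembly checkpoint, the transcripts of Mad2l1 and Bub3 were lower with NaAc, while those of the kinases Bub1, Bub1b and Ttk did not pass the test. Mad2l1 (ENSMUSG00000029910, chr6:66512374-66524204), which encodes MAD2, the protein that changes shape at unattached kinetochores and sequesters CDC20, measured 10.8, 12.6, 11.5, 10.9 and 12.4 FPKM in CD8+4T1 and 7.92, 9.07, 8.59, 7.93 and 9.11 FPKM in CD8+4T1+NaAc. The highest CD8+4T1+NaAc sample lay below the lowest CD8+4T1 sample, and the log2 fold change of -0.45 (SE 0.07, adjusted p = 0.000461) was the strongest fall among the 44 genes, to 0.734 of the CD8+4T1 level. It held in all 10 fits without 1 sample, and under the same total the log2 fold change was -0.27 (adjusted p = 0.00564). Bub3 (ENSMUSG00000066979, chr7:131161951-131173624), which docks the BUB kinases at kinetochores, ranged from 21.3 to 23.2 FPKM in CD8+4T1 and from 16.6 to 20.4 FPKM in CD8+4T1+NaAc, without overlap (log2 fold change -0.23, SE 0.06, adjusted p = 0.0112). The call on Bub3 ended under the same total (log2 fold change -0.05, adjusted p = 0.501) and under T cell marker scaling (adjusted p = 0.0959), and Fgfr2, listed at 0.954 FPKM on the opposite strand, spans the whole of the gene.

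Bub1, a checkpoint kinase, measured 18.5, 19.3, 16.7, 15.9 and 17.6 FPKM without NaAc and 15, 18.7, 18.2, 17 and 19 FPKM with NaAc. The groups overlapped, and the 95% confidence interval of its log2 fold change was -0.17 to 0.17 (adjusted p = 0.984). Bub1b, which encodes BUBR1, a component of the mitotic checkpoint complex with MAD2, BUB3 and CDC20, averaged 28.7 ± 1.03 and 28.6 ± 1.41 FPKM (SD, n = 5), with a log2 fold change of -0.005 (95% confidence interval -0.11 to 0.10, adjusted p = 0.946). Bub1b too turned under the same total and was called higher (0.17, adjusted p = 0.0109). Ttk, the kinase MPS1 that starts checkpoint signalling, had a log2 fold change of 0.13 (adjusted p = 0.501). Without CD8+4T1+NaAc replicate 1, where it was at 4.19 FPKM against 5.94 to 7.52 in the others of that group, it passed the test (adjusted p = 0.0229). Because a ratio within a sample does not depend on its scaling, the checkpoint complex partners were also set against each other, a choice made after their values were seen and given without a test. Log2 of Mad2l1 over Bub1b ran from -1.40 to -1.18 in CD8+4T1 and from -1.91 to -1.65 in CD8+4T1+NaAc. Log2 of Bub3 over Bub1b ran from -0.42 to -0.29 and from -0.83 to -0.48. Neither ratio overlapped between the groups. Mad2l1 and Bub3 alone already did not overlap on the deposited scale, where Bub1b hardly differed, and the share of all gene pairs without overlap was not computed. Of the 6 partner pairs set against each other in this way, 3 did overlap, Spc24 over Spc25 (-0.23 to 0.30 and -0.26 to 0.19), Ndc80 over Nuf2 (0.03 to 0.46 and -0.33 to 0.34) and Ccnb1 over Cdk1 (0.24 to 0.71 and 0.38 to 0.72).

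None of the 3 genes of the chromosomal passenger complex, which corrects faulty kinetochore attachments, passed the test. Birc5, survivin, measured 16.5, 21.5, 21.6, 22.4 and 20.2 FPKM in CD8+4T1 and 20.8, 24.9, 22.1, 22.1 and 21.2 FPKM in CD8+4T1+NaAc. Replicate 1 of CD8+4T1 was the lowest sample and replicate 2 of CD8+4T1+NaAc the highest, with overlap between them (log2 fold change 0.13, SE 0.08, adjusted p = 0.275). Incenp, the scaffold of the complex, measured 37.7, 36.9, 39.2, 40.5 and 38.5 FPKM without and 41.2, 38.6, 42.4, 37.3 and 38.8 FPKM with NaAc. Its log2 fold change was 0.04 (95% confidence interval -0.07 to 0.14, adjusted p = 0.572). Aurkb, the kinase of the complex, had a log2 fold change of -0.07 (95% confidence interval -0.21 to 0.06, adjusted p = 0.386). Under the same total, Birc5 (adjusted p = 0.00539) and Incenp (adjusted p = 0.0061) were called higher.

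Of the 7 kinetochore genes, 2 were called higher and 3 lower (28.6% and 42.9%, beside 17.6% and 19.0% of all genes tested), and under the same total Spc24 alone of the 3 was still lower. Cenpa (ENSMUSG00000029177, chr5:30824121-30832174), the histone H3 variant that marks centromeres, measured 28.3, 30.4, 31.8, 31.3 and 29.6 FPKM in CD8+4T1 and 38, 45.1, 45.3, 43 and 49.5 FPKM in CD8+4T1+NaAc. All CD8+4T1+NaAc samples exceeded all CD8+4T1 samples, by 1.45-fold overall (log2 fold change 0.54, SE 0.07, adjusted p = 0.000176), second to Anln among the 44 genes. Cenpf, a large protein of the outer kinetochore and nuclear matrix, ranged from 4.19 to 4.67 FPKM in CD8+4T1 and from 4.91 to 6.52 FPKM in CD8+4T1+NaAc without overlap (log2 fold change 0.33, SE 0.08, adjusted p = 0.00621). Cenpf was highest in CD8+4T1+NaAc replicate 1, as were 6 of the 44 genes in that group.

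The NDC80 complex, which binds the microtubule end, is built from NDC80, NUF2, SPC24 and SPC25. Spc24 (ENSMUSG00000074476, chr9:21666738-21671599) measured 13, 16.6, 16.7, 16.6 and 16.9 FPKM in CD8+4T1 and 11.2, 13.5, 11.9, 11.5 and 11.8 FPKM in CD8+4T1+NaAc. Replicate 1 of CD8+4T1 stood apart from the other 4 of its group and fell within the range of CD8+4T1+NaAc, and the log2 fold change was -0.40 (SE 0.08, adjusted p = 0.00298), a call that held without any 1 sample and under the same total (-0.23, adjusted p = 0.0204). Ndc80 had a log2 fold change of -0.21 (SE 0.06, adjusted p = 0.026), with adjusted p of 0.0554, 0.0652 and 0.0563 without CD8+4T1 replicate 3, CD8+4T1 replicate 5 or CD8+4T1+NaAc replicate 4. Spc25 had a log2 fold change of -0.20 (SE 0.06, adjusted p = 0.0281), and its adjusted p was 0.056 to 0.0701 without CD8+4T1 replicate 1 or 2 or without CD8+4T1+NaAc replicate 2, 3 or 4. Under the same total both calls ended, with adjusted p of 0.72 for Ndc80 and 0.842 for Spc25. Nuf2 measured 7.34, 6.42, 6.03, 5.55 and 5.92 FPKM in CD8+4T1 and 5.25, 6.82, 6.58, 7.24 and 7.57 FPKM in CD8+4T1+NaAc. Its groups overlapped, with the lowest of all samples again CD8+4T1+NaAc replicate 1 (log2 fold change 0.09, 95% confidence interval -0.14 to 0.33, adjusted p = 0.536). Cenpe, a kinesin of the kinetochore, averaged 12.2 ± 0.704 and 13.6 ± 1.40 FPKM (SD, n = 5), with a log2 fold change of 0.15 (adjusted p = 0.145), and was called higher under the same total (0.32, adjusted p = 0.0105).

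Kinesins, the motors that slide and depolymerize spindle microtubules, differed by at most 0.24 on the log2 scale, with 2 of 8 called higher and 1 lower (25% and 12.5%), near the 17.6% and 19.0% of all genes tested. Kif20a (MKLP2), which carries the passenger complex to the central spindle, measured 18.2, 15.6, 16.2, 16.9 and 16.5 FPKM in CD8+4T1 and 17.2, 20.3, 21.1, 18.4 and 19.5 FPKM in CD8+4T1+NaAc. The groups overlapped through replicate 1 of each, with a log2 fold change of 0.21 (SE 0.07, adjusted p = 0.0291). The adjusted p was 0.0565 to 0.0727 without replicate 2, 3 or 5 of either group. Cdc23, listed at 4.48 FPKM on the opposite strand, overlaps 2327 bases of Kif20a. Kif2c, a microtubule depolymerase of the centromere, was higher by a log2 fold change of 0.19 (SE 0.06, adjusted p = 0.031), with adjusted p of 0.0522 to 0.0719 without CD8+4T1 replicate 1, 2, 4 or 5 or without CD8+4T1+NaAc replicate 2, 3 or 5. Kif11 (Eg5), which pushes the spindle poles apart, ranged from 14.4 to 15.9 FPKM in CD8+4T1 and from 12.5 to 14.1 FPKM in CD8+4T1+NaAc without overlap, a log2 fold change of -0.14 (SE 0.05, adjusted p = 0.0412). That call had an adjusted p of 0.0661 to 0.0962 without CD8+4T1 replicate 1, 2, 3 or 4 or without CD8+4T1+NaAc replicate 3 or 4, and its direction turned under the same total (log2 fold change 0.03, adjusted p = 0.69).

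Kif4, a chromokinesin, measured 10.8, 9.65, 10.03, 8.83 and 9.99 FPKM in CD8+4T1 and 7.97, 11.3, 10.8, 9.48 and 10.5 FPKM in CD8+4T1+NaAc. The CD8+4T1+NaAc samples lay on both sides of the CD8+4T1 samples (log2 fold change 0.01, 95% confidence interval -0.19 to 0.22, adjusted p = 0.921). Pdzd11, listed at 12.7 FPKM on the opposite strand, overlaps 832 bases of Kif4. The remaining kinesins did not pass the test, although under the same total Kif15 (0.26, adjusted p = 0.0269), Kif18a (0.41, adjusted p = 0.0392) and Kif23 (0.32, adjusted p = 0.00225) were called higher. Kif18a, which dampens chromosome oscillation, had a log2 fold change of 0.24 (adjusted p = 0.184), and Kif20b, a motor of late cytokinesis, one of -0.16 (adjusted p = 0.231). Kif15, which backs up Eg5, had a log2 fold change of 0.09 (adjusted p = 0.397). Kif23 (MKLP1), which bundles the central spindle, had one of 0.15 (adjusted p = 0.0683) and passed without CD8+4T1+NaAc replicate 4 (adjusted p = 0.0217).

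The 4 genes of anaphase onset did not pass the test, but under the same total Espl1 (0.27, adjusted p = 0.00262) and Ube2c (0.24, adjusted p = 0.0223) were called higher. Cdc20, the activator of the anaphase-promoting complex that the checkpoint restrains, measured 77.8, 72.7, 77.1, 85.2 and 72.1 FPKM in CD8+4T1 and 75.7, 71.4, 66.3, 64.1 and 69.4 FPKM in CD8+4T1+NaAc. The groups overlapped through replicate 1 of CD8+4T1+NaAc, with a log2 fold change of -0.15 (SE 0.06, adjusted p = 0.0821), and without CD8+4T1+NaAc replicate 1 the adjusted p was 0.0253. Pttg1, securin, which holds separase inactive until anaphase, measured 25.3, 27.8, 30.6, 29 and 24.8 FPKM in CD8+4T1 and 18.8, 32.5, 31.4, 32 and 35.9 FPKM in CD8+4T1+NaAc. Replicate 1 of CD8+4T1+NaAc lay below every other sample and the other 4 of that group lay above every CD8+4T1 sample, so that the log2 fold change was 0.10 (SE 0.15, adjusted p = 0.637) with that sample and had an adjusted p of 0.0115 without it. Espl1, separase, which cleaves cohesin, had a log2 fold change of 0.09 (adjusted p = 0.17), and Ube2c, the ubiquitin-conjugating enzyme of the anaphase-promoting complex, one of 0.06 (adjusted p = 0.603).

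At the central spindle and in cytokinesis, Anln rose more than any other of the 44 genes and Ect2 rose slightly, while Racgap1 and Prc1 did not pass the test. Anln (ENSMUSG00000036777, chr9:22243308-22300484), anillin, the scaffold that ties actin, myosin and septins together in the contractile ring, measured 3.06, 2.76, 2.81, 2.43 and 2.61 FPKM in CD8+4T1 and 4.99, 8.63, 7.06, 7.23 and 5.47 FPKM in CD8+4T1+NaAc. The lowest CD8+4T1+NaAc sample lay above the highest CD8+4T1 sample, with means of 2.73 ± 0.236 and 6.68 ± 1.46 FPKM (SD, n = 5), a 2.35-fold difference (log2 fold change 1.23, SE 0.14, adjusted p = 9.75e-05). It rested on 363 to 1474 fragments per sample, and its spread within CD8+4T1+NaAc, a coefficient of variation of 21.9%, was wider than in CD8+4T1, at 8.64%. Racgap1, the GTPase-activating subunit of centralspindlin, to which anillin binds, measured 21.3, 22.3, 22.7, 22.8 and 22.2 FPKM in CD8+4T1 and 20.8, 21.7, 22.7, 22.9 and 22.6 FPKM in CD8+4T1+NaAc. These values overlapped throughout, with a log2 fold change of -0.0083 (95% confidence interval -0.10 to 0.09, adjusted p = 0.898). Its direction turned under the same total, where it was called higher (0.17, adjusted p = 0.00855). Ect2, the RhoA exchange factor that centralspindlin recruits, had a log2 fold change of 0.24 (SE 0.07, adjusted p = 0.0207), with adjusted p of 0.0525, 0.0512 and 0.0521 without CD8+4T1 replicate 3, 4 or 5. Prc1, which crosslinks antiparallel microtubules, had one of 0.12 (adjusted p = 0.199) and was called higher under the same total (0.29, adjusted p = 0.0077). Rccd1, listed at 1.36 FPKM on the opposite strand, spans the whole of Prc1. Within samples, log2 of Anln over Racgap1 ran from -3.23 to -2.80 in CD8+4T1 and from -2.06 to -1.33 in CD8+4T1+NaAc, a ratio chosen after the values were seen and given without a test.

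Levels of tumor cell markers moved with the group. Within CD8+4T1+NaAc, but not within CD8+4T1, their order was that of Anln except that replicates 1 and 5 changed places. Anln, which had the largest rise, was the only gene of the 44 set beside the markers in this way. Over the 44 genes, replicate 2 was the highest of CD8+4T1+NaAc in 13 and replicate 5 in 20. The 20 markers of 4T1 and epithelial cells summed to 40.5, 41.6, 40.2, 52.5 and 52.0 FPKM in CD8+4T1 and to 123.0, 266.3, 170.1, 199.3 and 115.7 FPKM in CD8+4T1+NaAc (exact permutation test, two-sided, p = 0.00794, n = 5 per group). In both Anln and these markers, CD8+4T1+NaAc replicate 2 was highest, and replicates 4 and 3 followed. The lowest sample of that group was replicate 1 for Anln, with replicate 5 next, and replicate 5 for the markers, with replicate 1 next. Within CD8+4T1 the order was another, with Anln highest in replicate 1 and lowest in replicates 4 and 5, where the markers were highest. Of all 20 markers, whether or not they passed the filter, 11 had every CD8+4T1+NaAc sample above every CD8+4T1 sample and 0 the reverse (13.1% and 13.3% of all genes tested), among them the keratins Krt8 (3.42 to 34.2 FPKM) and Krt18 (3.37 to 26.4 FPKM). Krt7, Ocln and the claudin Cldn3 (0.380 to 2.66 FPKM) passed the filter only through their level in CD8+4T1+NaAc. Of the 7 markers under the filter, Krt5, Krt19 and Esrp1 were at or near 0 in all samples. E-cadherin (Cdh1) was at 0.0125 to 0.0663 FPKM in CD8+4T1 and 0.355 to 0.928 FPKM in CD8+4T1+NaAc, and Elf3 at 0.0277 to 0.189 and 0.519 to 1.17 FPKM, both without overlap. Krt14 was at 0 to 0.207 and 0.103 to 0.599 FPKM and Cldn4 at 0 to 0.134 and 0 to 0.358 FPKM. Another 4 markers passed the filter and were not called. Epcam was at 0.327 to 0.911 and 0.506 to 0.911 FPKM, Cldn7 at 0.383 to 0.871 and 0.486 to 0.762 FPKM. Dsp was at 1.13 to 1.81 and 1.51 to 2.44 FPKM, and Spint2 at 20.1 to 21.0 and 17.6 to 21.4 FPKM. Spint2, with a log2 fold change of -0.11, was the largest single part of the marker sum in every CD8+4T1 sample. Like any dividing cells, 4T1 cells express mitotic genes, and the part of the markers' source in the levels of Anln and the other 43 genes was not tested.

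**Figure D3:**
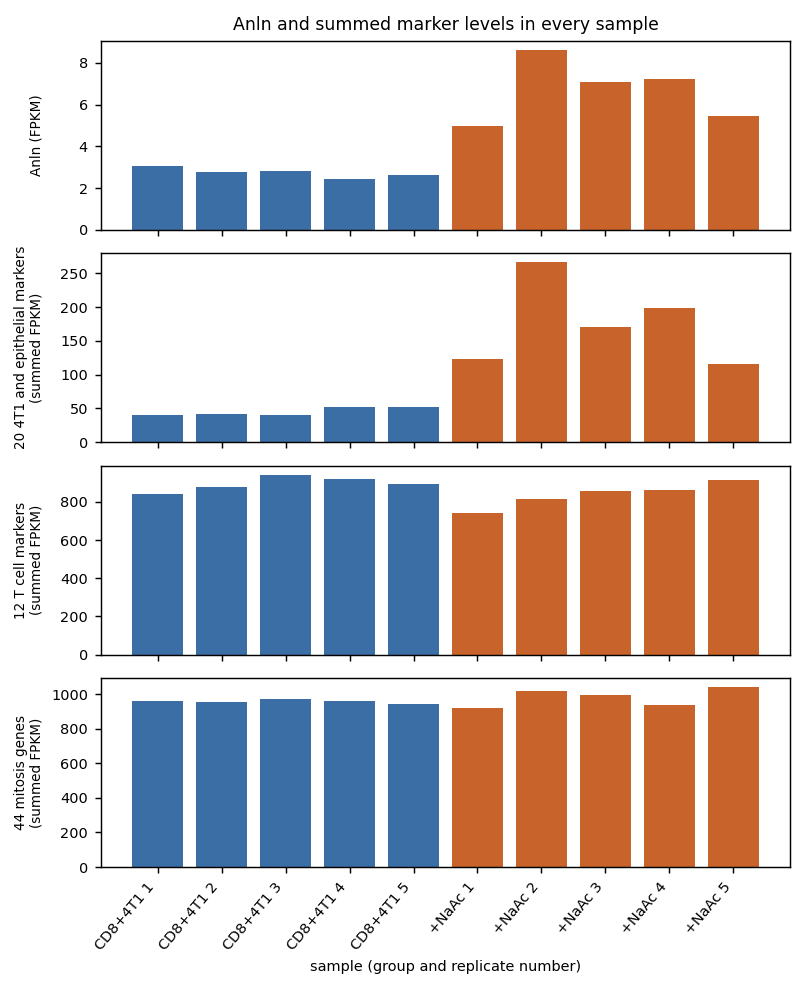
Bars, from 0, give for each of the 10 samples (x axis, group and replicate) the FPKM of Anln, the summed FPKM of 20 markers of 4T1 and epithelial cells, of 12 T cell markers and of the 44 mitosis genes. Anln and the 4T1 markers are higher in all 5 CD8+4T1+NaAc samples and highest in replicate 2. On the deposited scale shown here, the summed T cell markers and mitosis genes overlap between groups.

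The 12 T cell markers were present in all samples, with Cd8a at 78.6 ± 2.34 and 76.5 ± 4.37 FPKM (SD, n = 5), and summed to 840 to 943 FPKM in CD8+4T1 and 741 to 914 FPKM in CD8+4T1+NaAc (exact permutation test, two-sided, p = 0.135, n = 5 per group). Of these, 6 were called lower (50%, beside 19.0% of all genes tested), including Cd3d and Lck, and 1 higher (8.33%, beside 17.6%). Summed markers of CD4 T cells were 0.469 to 1.084 and 1.47 to 2.01 FPKM, those of B cells 3.92 to 4.91 and 4.55 to 6.24 FPKM, and those of myeloid cells 3.19 to 5.50 and 4.59 to 7.04 FPKM, while NK cell markers were at most 0.292 FPKM and erythroid markers at most 2.05 FPKM. The part of these cells in the results was not tested.

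The 2 remaining genes, of chromosome structure and surface, differed from each other. Mki67 (ENSMUSG00000031004, chr7:135291513-135318090), the Ki-67 antigen used to stain proliferating cells, which coats mitotic chromosomes, measured 46.9, 43.7, 46.6, 43.4 and 43.8 FPKM in CD8+4T1 and 53.8, 51.7, 52.7, 55.6 and 63.9 FPKM in CD8+4T1+NaAc. All CD8+4T1+NaAc samples exceeded all CD8+4T1 samples, with a log2 fold change of 0.30 (SE 0.06, adjusted p = 0.00293), that is 1.23-fold. Top2a, DNA topoisomerase II alpha, which untangles sister chromatids and is also used as a proliferation marker, measured 89.7, 90.5, 87.1, 79.9 and 92.3 FPKM in CD8+4T1 and 77.2, 86.9, 84.4, 76.4 and 86.8 FPKM in CD8+4T1+NaAc. These groups overlapped, with a log2 fold change of -0.10 (95% confidence interval -0.22 to 0.03, adjusted p = 0.233). The proliferation markers among the 44 genes thus gave different outcomes, Mki67 being higher and Top2a, Ccnb1 and Cdk1 not passing the test, although under the same total Cdk1 and Ccnb1 did pass.

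Across the 44 genes the samples of CD8+4T1+NaAc spread over a wider range than those of CD8+4T1. The mean deviation of the 44 genes from their own means over all samples, on the log2 scale, was -0.0024, -0.03, -0.03, -0.07 and -0.07 in CD8+4T1 and -0.07, 0.10, 0.07, -0.01 and 0.10 in CD8+4T1+NaAc. CD8+4T1+NaAc replicate 1 was the lowest of its group in 26 of 44 genes and replicate 4 in 15, while replicate 5 was the highest in 20. Among CD8+4T1 samples, replicate 1 was the highest in 19 genes and replicate 4 the lowest in 16. CD8+4T1+NaAc replicate 1 also had the fewest genes above 0 FPKM, 20233 against 24681 to 25088 in the rest of its group. When replicate 1 of both groups was left out, 17 of the 44 genes were called higher and 6 lower, where 21.8% and 22.6% of all genes tested were.

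**Figure D4:**
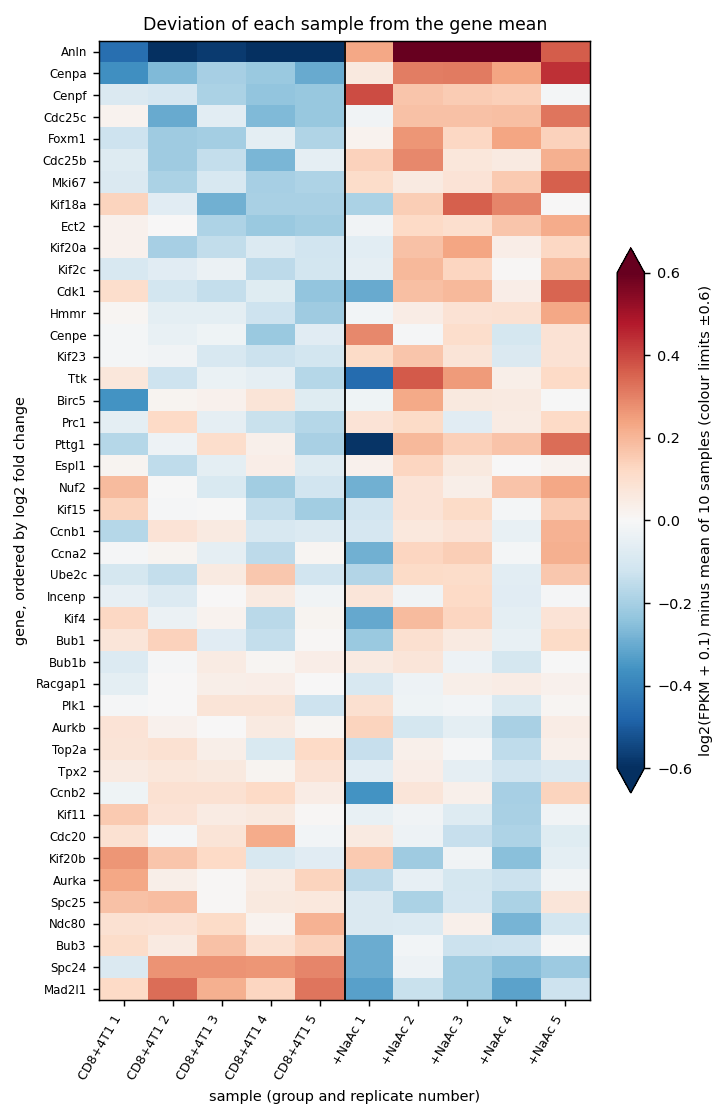
Deviation of each of the 10 samples (columns) from the gene's mean over all samples (colour, log2(FPKM + 0.1), limits at 0.6 either way) for the 44 genes, ordered by log2 fold change from Anln at the top (1.23) to Mad2l1 at the bottom (-0.45). The black line parts the groups, and the column of CD8+4T1+NaAc replicate 1 runs against its group for genes such as Cdk1, Ttk and Pttg1.

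Some of these values could hold reads of other loci. Annotated pseudogenes of the 44 genes, which 20 of them have, held at most 5.87% of the gene's and pseudogenes' fragments together, for Plk1, with 2.06% for Ccnb2 and 1.52% for Ccnb1. Another gene with a mean of at least 0.5 FPKM overlaps 17 of the 44 genes. Because the library kit does not mark strand, reads of opposite strands cannot be told apart there. The genes lie on 16 chromosomes, 8 of them on chromosome 2.

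Other genes of the cycle were set beside the 44 genes from lists of known members, with the shares of all genes tested beside them (17.6% higher and 19.0% lower, or 31.2% and 8.80% under the same total). Of 94 other mitosis genes, which include further kinetochore, condensin and anaphase-promoting complex subunits, 17 were called higher (18.1%) and 26 lower (27.7%), with a median log2 fold change of -0.02. Under the same total FPKM this became 42 higher and 8 lower, with a median of 0.16 beside 0.16 for all genes. The 3 largest changes among those called were Anapc13 (9.48 to 5.92 FPKM, log2 fold change -0.70, adjusted p = 0.0232), a subunit of the anaphase-promoting complex, Cks2 (144 to 93.9 FPKM, log2 fold change -0.61, adjusted p = 6.96e-05), a small partner of CDK1, and Troap (5.66 to 8.61 FPKM, log2 fold change 0.60, adjusted p = 8.1e-05), a spindle-associated protein. Of 41 DNA replication genes, 3 were called higher (7.32%) and 11 lower (26.8%), with a median of -0.05 (11 and 5, with a median of 0.13, under the same total). Rpa3, a subunit of the single-strand DNA binding protein, fell from 45 ± 4.13 to 27.2 ± 2.53 FPKM (SD, n = 5), Rfc3, a subunit of the clamp loader, fell by 0.51 on the log2 scale, and Cdt1, the licensing factor, rose by 0.54. Of 23 transcription regulators of the cycle, 1 was called higher (4.35%) and 7 lower (30.4%), with a median of -0.07 (5 and 3, with a median of 0.11, under the same total). Cdkn1a, the CDK inhibitor p21, was at 241, 241, 243, 234 and 245 FPKM in CD8+4T1 and 192, 152, 153, 152 and 143 FPKM in CD8+4T1+NaAc. All CD8+4T1+NaAc samples lay below all CD8+4T1 samples (log2 fold change -0.61, SE 0.07, adjusted p = 0.000147). The NF-Y subunits Nfya (-0.59, adjusted p = 9.75e-05) and Nfyb (-0.49, adjusted p = 3.07e-05) were lower, and Mybl2, which encodes B-MYB, did not pass the test (log2 fold change -0.04, adjusted p = 0.613). Under the same total Cdkn1a (-0.43), Cks2 (-0.44), Rpa3 (-0.55), Rfc3 (-0.33), Nfya (-0.42) and Nfyb (-0.31) remained lower and Cdt1 (0.72) and Troap (0.77) higher, whereas Anapc13 lost its call (adjusted p = 0.0713). These lists were not tested against the 44 genes.

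**Figure D5:**
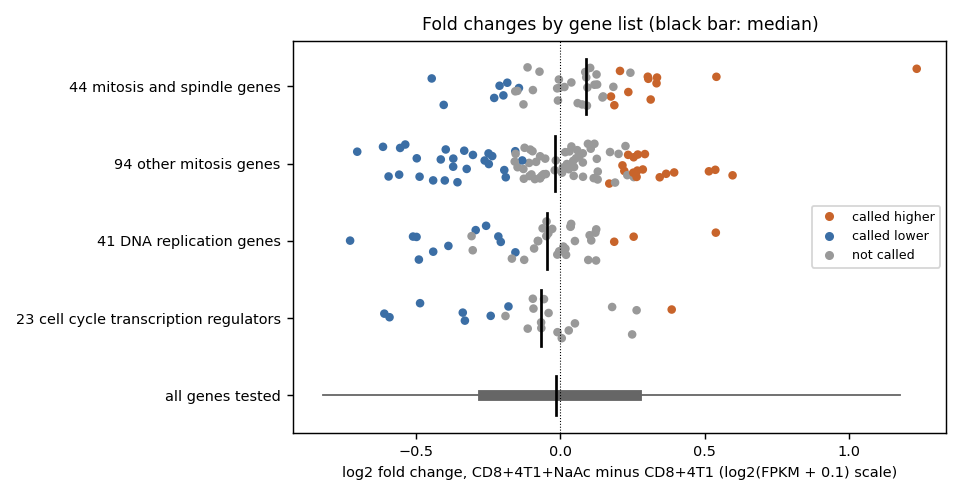
Log2 fold change (x axis, CD8+4T1+NaAc minus CD8+4T1) of each gene in 4 lists, coloured by the call at an adjusted p of 0.05, with the median as a black bar. The lowest row gives all 15710 genes tested as the range from the 25th to the 75th percentile (thick bar) and from the 5th to the 95th (thin line), and the medians are 0.09, -0.02, -0.05 and -0.07 for the lists and -0.02 for all genes.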

How the data were processed

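RNA of 10 samples, 5 per group, was sequenced by the authors on a NovaSeq instrument from NEBNext Ultra libraries, a kit that does not mark strand. The deposited values are FPKM per gene and sample, not pooled, and the gene length deposited beside them was used as listed. The submitters' processing notes name fastp, HISAT2 2.0.5, StringTie 1.3.3b and featureCounts 1.5.0-p3. The genome build, annotation and strand setting are not given in the sources used here, and gene positions are printed as the deposited table lists them, which are not those of GRCm38 used for the promoters. Multiplying FPKM by gene length gave whole multiples of a unit for 100% of values (within 0.1), and hence the fragments per gene and the reference fragments per sample. The main test was planned for FPKM, which are not counts, and the recovered fragments entered an alternative fit only. The groups were compared with limma 3.58.1 (R 4.3.3) on log2(FPKM + 0.1), with variance trend and robust moderation, over genes averaging 0.5 FPKM or more. Benjamini-Hochberg adjustment ran over all of these genes, with calls at an adjusted p under 0.05. On this scale the change of low genes is understated. Simulated data of 5 against 5 samples held 104 genes changed by 0.5 (log2) and 89 changed by 1, with the same dispersion set for every gene. Of these, 50% and 83.1% were called, against 0.0451% of unchanged genes. In the real data 36.5% of genes passed and the spread differs between genes. The simulated shares therefore do not give the rate of missed or false calls here.

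The 44 genes and all lists were chosen with earlier results of these data known. Values of every sample are given for Cdk1, Ccnb1, Mki67, Top2a and Foxm1 and for the genes with the smallest and the largest adjusted p of each role (and for Spc24, added after its values were seen), and from the other lists the 3 called genes with the largest absolute log2 fold change and Mybl2 are named. Alternatives were other pseudocounts, no filter or a mean of at least 5 FPKM, 3 other scalings, limma with sample weights, limma with neither trend nor robust moderation, a replicate block, voom on the recovered fragments, replicate 1 of both groups left out, each sample left out and an adjusted p under 0.01. Motifs were read from RefSeq promoters, and figures were drawn with matplotlib 3.10.9.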

Additional observations from a re-analysis of the deposited data

Results flagged for a closer look

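A sample standing apart from the other 4 of its group, by Dixon's ratio of its gap to the group's range (critical value 0.71), was found in 7 of 112 groups of 5 checked, where chance gives about 1 in 20, or 5.6. Spc24 in CD8+4T1 had a ratio of 0.931, with replicate 1 at 13.0 FPKM against 16.6 to 16.9 in the other 4. Cenpe in CD8+4T1 had a ratio of 0.733, with replicate 4 at 10.98 FPKM against 12.2 to 12.7. Pttg1 in CD8+4T1+NaAc had a ratio of 0.791, with replicate 1 at 18.8 FPKM against 31.4 to 35.9. In the same sample the summed B cell markers were at 4.55 FPKM against 5.94 to 6.24 (ratio 0.821), and the genes above 0 numbered 20233 against 24681 to 25088 (ratio 0.916). Genes above 0 also set CD8+4T1 replicate 1 apart, 22291 against 23786 to 24054 (ratio 0.848). The reference fragments of CD8+4T1+NaAc replicate 2 were the most of its group, with a ratio of 0.747.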

How the results depend on the processing

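The 11 higher and 7 lower genes and their median log2 fold change of 0.09 moved as follows. With samples brought to a common total FPKM, 26 genes were higher and 2 lower (all genes 31.2% and 8.80%), with a median of 0.26, and with scaling to the summed T cell markers 2 were lower (all genes 9.92%), with a median of 0.18. Without a filter on low values 4 were lower (all genes 8.07%), without replicate 1 of both groups 17 were higher and 6 lower (all genes 21.8% and 22.6%), and at an adjusted p under 0.01 there were 6 higher and 2 lower (all genes 11.7% and 11.9%). Leaving out 1 sample at a time gave 7 to 15 higher and 4 to 9 lower genes (all genes 15.1 to 21.7% and 16.1 to 22.6%). Under the same total 11 genes turned from a negative to a positive log2 fold change, of which Plk1 (0.17), Bub1b (0.17) and Racgap1 (0.17) were then called, Kif11 (0.033) lost its call and the other 7 (Bub1, Ccnb2, Tpx2, Aurkb, Cdc20, Top2a and Kif20b) were called in neither fit. The cause of these moves was not tested. Of 18 called genes, 11 kept their call in all 10 fits without 1 sample, and 9 of those (Cdc25b, Cdc25c, Foxm1, Mad2l1, Cenpa, Cenpf, Spc24, Anln and Mki67) in each other setting of the fit that tested them, 12 settings for 7 genes and 11 for Cdc25c and Anln, which average under 5 FPKM. The replicate block gave 8 higher and 5 lower (all genes 16.2% and 18.1%), but samples of the same number did not deviate together (mean correlation 0.01, from -0.03 to 0.07), so the numbers were not read as pairs. Depth limits the low genes, down to 216 fragments for Kif18a.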

Other observations

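Among the other mitosis genes, subunits of the anaphase-promoting complex, the ubiquitin ligase that ends mitosis, were looked at after their values were seen. Of 13 subunits, 7 were called lower in CD8+4T1+NaAc and 0 higher (all genes tested 19.0% and 17.6%), with a median log2 fold change of -0.19, but once samples were brought to a common total FPKM 2 were lower and 4 higher (all genes 8.80% and 31.2%), with a median of -0.01. Anapc11 (25.4 ± 1.45 to 17.3 ± 1.97 FPKM, SD, n = 5, adjusted p = 0.000287) and Anapc10 (3.33 ± 0.206 to 2.34 ± 0.288 FPKM, adjusted p = 0.00259) fell without overlap between the groups. Cdc23 (log2 fold change -0.24, adjusted p = 0.0188) also fell without overlap and Anapc2 (-0.19, adjusted p = 0.0227) with overlap, while Anapc1 (0.05, adjusted p = 0.713) and Anapc5 (0.05, adjusted p = 0.525) did not pass the test.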
